A study of Mus musculus with 3 samples.

Results

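The Hox genes are the homeobox transcription factor genes of the HoxA, HoxB, HoxC and HoxD clusters. All gene models named Hoxa, Hoxb, Hoxc or Hoxd followed by a number were taken, which gave 39 of the 22077 gene names analysed: 11 in HoxA, 10 in HoxB, 9 in HoxC and 9 in HoxD. Their levels were read in 3 RNA sequencing libraries of FVB mouse mammary cells, 1 library per group. The lung-colonizing cell library (LCC) held donor mammary cells, carrying a fluorescent protein (GFP) or stained with DDAO, that were sorted from dissociated lungs 1 day after intravenous delivery. In each experiment the glands of 8 donor females supplied 4 recipients in 2 doses of 2500000 cells, and the library pooled 15 experiments, 42 lungs and 455880 cells. The E-Int29-Hi library held the EpCAM-intermediate and CD29-high fraction of mammary cells, a gate that the labels describe as containing the colonizing cells, with 3 samples combined. The MG library was made from intact mammary gland, also with 3 samples combined. The donor ages and the position of the glands along the body are not given in the sources used here, and every library is a pool, so no value has a replicate check.

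Hox proteins bind DNA through a shared homeodomain and record position along the body axis. Genes at the 3′ end of a cluster act towards the head and genes at the 5′ end towards the tail, and members at matching positions in different clusters are paralogs that carry the same number. Cells of adult tissues, fibroblasts above all, keep a Hox pattern that reflects where they came from, and the mammary gland is known to need the paralogs Hoxa9, Hoxb9 and Hoxd9 for its growth in pregnancy.

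The homeobox, the 180 bases that encode the homeodomain, was found in GENCODE M21 transcripts of all 39 genes. The sequences shown are those of the 3 HoxC genes that reach 1 FPKM, which separate LCC from E-Int29-Hi. They are read 5′ to 3′, and capitals mark the codons of the tryptophan, phenylalanine, glutamine, asparagine and paired arginines in the helix that contacts DNA.
Hoxc6: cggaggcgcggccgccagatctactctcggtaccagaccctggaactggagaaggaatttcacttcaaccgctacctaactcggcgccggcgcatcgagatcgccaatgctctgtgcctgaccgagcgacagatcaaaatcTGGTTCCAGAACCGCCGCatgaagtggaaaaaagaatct
Hoxc8: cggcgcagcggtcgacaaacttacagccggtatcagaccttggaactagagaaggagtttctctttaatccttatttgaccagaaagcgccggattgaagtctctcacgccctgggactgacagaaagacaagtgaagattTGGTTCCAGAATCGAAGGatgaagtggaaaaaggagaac
Hoxc10: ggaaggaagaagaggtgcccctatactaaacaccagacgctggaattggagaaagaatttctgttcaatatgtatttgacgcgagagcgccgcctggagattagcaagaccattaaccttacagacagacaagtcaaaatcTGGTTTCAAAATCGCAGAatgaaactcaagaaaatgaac
Against Hoxc6, the homeobox of Hoxc8 differed at 58 of 180 bases and that of Hoxc10 at 73. Among 42 pairs of genes with the same paralog number, homeobox identity ran from 67.2% to 93.9% with a median of 80.6%. Among 172 pairs within a cluster the median was 61.7%. The longest run of aligned bases shared by any 2 members was 52, between Hoxa6 and Hoxb4. The read length and the handling of reads that match several genes are not given in the sources used here.

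Levels are in FPKM, a fragment count divided by gene model length and by the mapped fragments of the library, so genes of different length can be compared within a library. Fragment totals are not given in the sources used here, and the low values show that the libraries do not resolve low genes alike. Over all gene names, 6819 were listed at 0 for LCC, 4952 for E-Int29-Hi and 3163 for MG, and 987, 2498 and 3147 stood above 0 but under 0.1 FPKM. Leaving out 1 LCC estimate under 1e-10 (Hoxd4), which is treated like a 0, the lowest Hox value above 0 was 0.196 FPKM in LCC (Hoxc11), 0.00760 FPKM in E-Int29-Hi (Hoxa11) and 0.0158 FPKM in MG (Hoxd13). A Hox gene listed at 0 in LCC is therefore not shown to be absent, and no fold is given against it.

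Hox levels were low in every library, with MG holding the most members and E-Int29-Hi the fewest. At 1 FPKM or more stood 15 of 39 members in MG, 7 in LCC and 3 in E-Int29-Hi, while 54.5%, 51.2% and 50.0% of all gene names reached that level in the same order. No member reached 10 FPKM in any library. The median member stood at 0.610 FPKM in MG, 0.287 in LCC and 0.123 in E-Int29-Hi, and the 39 values summed to 33.9, 22.7 and 12.6 FPKM. The highest single value, Hoxb3 in E-Int29-Hi at 3.71 FPKM, was above 63.9% of all gene names in that library. In these bulk samples, fewer cells that carry a gene and less RNA of it per cell cannot be told apart.

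**Figure D1:**
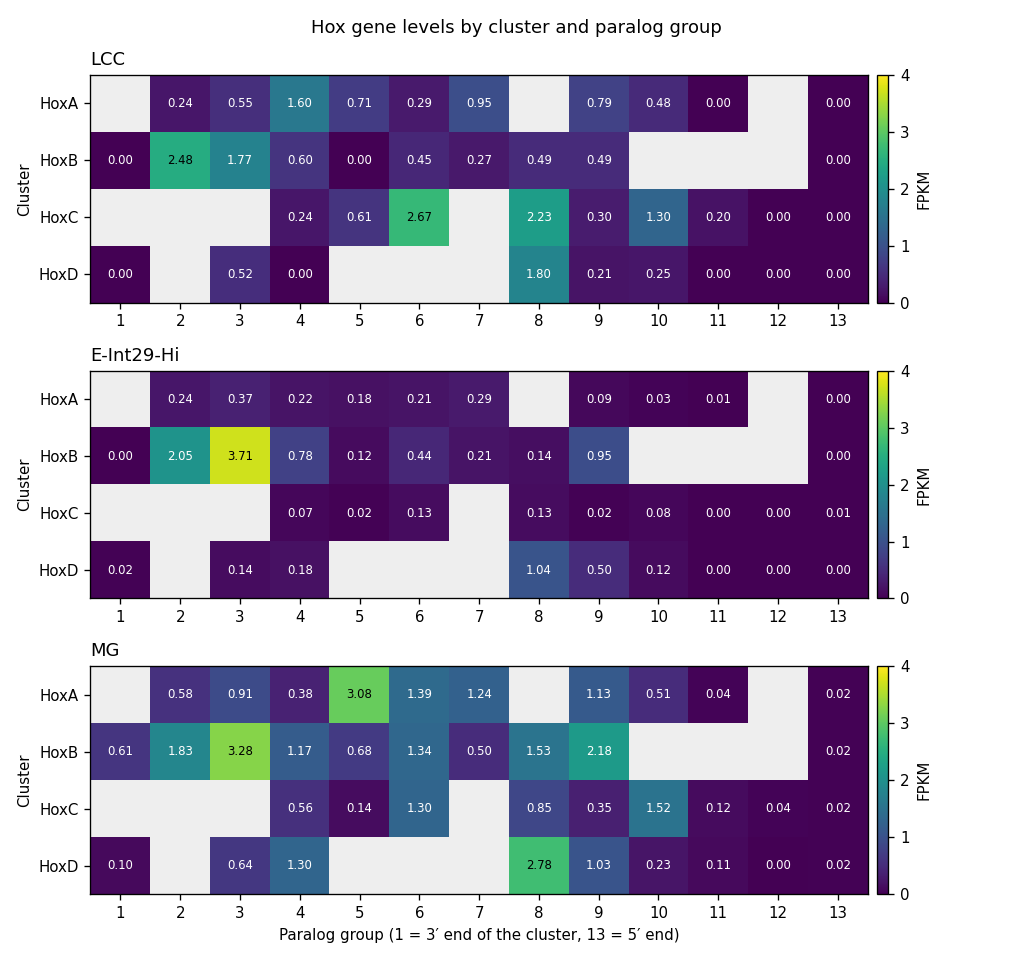
Level of 38 Hox genes in FPKM (colour and printed value, rounded to 2 decimals), with clusters as rows, paralog groups as columns and 1 panel per library; grey cells have no plotted gene. Levels concentrate in HoxB groups 2 and 3 in E-Int29-Hi, spread over groups 2 to 10 in MG, and include Hoxc6, Hoxc8 and Hoxc10 in LCC.

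The 17 members at 1 FPKM or more in any library were not ordered alike across the libraries. MG was the highest for 12 of them, LCC for 4 (Hoxa4, Hoxb2, Hoxc6 and Hoxc8) and E-Int29-Hi for 1 (Hoxb3, though not when the libraries are rescaled to equal sums). Of these 12, all but Hoxc10 and Hoxd8 reached 1 FPKM in MG alone, and Hoxa4 and Hoxc8 reached it in LCC alone. For those genes the filter itself fixed which library was highest. Over the 12772 gene names at that level in any library, MG was the highest for 33.2%, LCC for 41.6% and E-Int29-Hi for 25.2%. E-Int29-Hi was the lowest for 11 of the 17, against 47.5% of all such names, and LCC lay between the others for 8: Hoxa5, Hoxa6, Hoxa7, Hoxa9, Hoxb6, Hoxb8, Hoxc10 and Hoxd8. For Hoxb6 the levels in LCC and E-Int29-Hi (0.450 and 0.440 FPKM) are too close to order, and their order turns with another scaling of the libraries. Only Hoxb2, Hoxb3 and Hoxd8 stood at 1 FPKM or more in all 3 libraries.

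**Figure D2:**
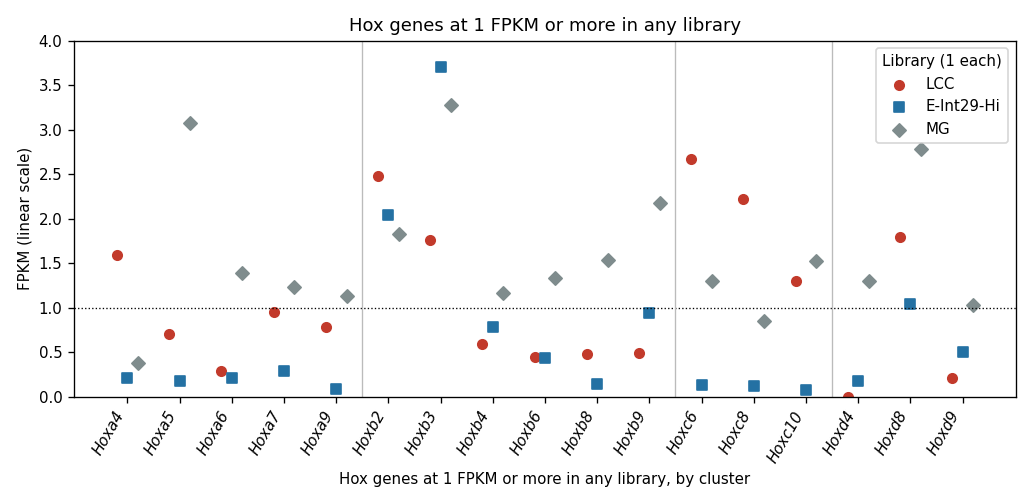
FPKM on a linear scale of the 17 Hox genes that reach 1 FPKM in any library, with 1 point per library and grey lines between clusters. Hoxb2 and Hoxb3 stand above the dotted line at 1 FPKM in every library, whereas the 3 HoxC genes stand at 0.133 FPKM or less in E-Int29-Hi.

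Hoxb2 and Hoxb3, of the 3′ end of HoxB, stood above 1 FPKM in every library, as Hoxd8 did. Hoxb2 (ENSMUSG00000075588), a gene of hindbrain and branchial arch patterning, stood at 2.48 FPKM for LCC, 2.05 for E-Int29-Hi and 1.83 for MG. Hoxb3 (ENSMUSG00000048763), its neighbour with roles in the same regions, stood at 1.77, 3.71 and 3.28 FPKM. The 3 libraries thus lie close together for Hoxb2, whose order turns with the scaling between LCC and E-Int29-Hi and between E-Int29-Hi and MG, and LCC holds the lowest level of Hoxb3. The order of E-Int29-Hi and MG for Hoxb3 also turns when the libraries are rescaled to the same sum. Hoxb1, the remaining gene of this end, was listed at 0 in LCC and E-Int29-Hi and at 0.610 FPKM in MG.

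The middle and 5′ genes of HoxB were highest in MG throughout. Hoxb4, known for its effect on blood stem cells, stood at 0.597, 0.780 and 1.17 FPKM for LCC, E-Int29-Hi and MG. Hoxb6 stood at 0.450, 0.440 and 1.34 FPKM, and Hoxb8 at 0.486, 0.141 and 1.53 FPKM. Hoxb9, of the paralog group needed for mammary growth, stood at 0.489, 0.947 and 2.18 FPKM, lowest in LCC. For these 4 genes no sorted library reached 1 FPKM. Hoxb5, which is expressed in developing lung mesenchyme, was listed at 0 in LCC and stood at 0.116 FPKM for E-Int29-Hi and 0.677 for MG, and Hoxb7 stood at 0.267, 0.214 and 0.502 FPKM.

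HoxC was the cluster in which LCC and E-Int29-Hi stood furthest apart. Hoxc6 (ENSMUSG00000001661), a thoracic-level gene known to be expressed in the mammary gland, stood at 2.67 FPKM for LCC, 0.133 for E-Int29-Hi and 1.30 for MG. Hoxc8 (ENSMUSG00000001657), known for its part in placing the mammary rudiment, stood at 2.23, 0.126 and 0.849 FPKM. Hoxc10 (ENSMUSG00000022484), a lumbar and hindlimb-level gene, stood at 1.30, 0.0770 and 1.52 FPKM. LCC was thus the highest library for Hoxc6 and Hoxc8 and close to MG for Hoxc10, with E-Int29-Hi the lowest for each. On the log2(FPKM + 1) scale, where differences between low values shrink, LCC differed from E-Int29-Hi by 1.70 for Hoxc6, 1.52 for Hoxc8 and 1.09 for Hoxc10. Against MG the LCC values differed by 0.68, 0.80 and -0.13.

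The other HoxC members were lower but showed a similar order of the sorted libraries. Hoxc5 stood at 0.605 FPKM for LCC, 0.0209 for E-Int29-Hi and 0.139 for MG, Hoxc4 at 0.237, 0.0662 and 0.556 FPKM, and Hoxc9 at 0.301, 0.0174 and 0.348 FPKM. Hoxc11 stood at 0.196 FPKM in LCC and 0.118 in MG and was listed at 0 in E-Int29-Hi. Of the 9 HoxC genes, 7 were higher in LCC than in E-Int29-Hi, 1 (Hoxc13, at 0.00835 FPKM in E-Int29-Hi) was listed at 0 in LCC, and Hoxc12 was listed at 0 in both. E-Int29-Hi stood below MG for all 9, and between LCC and MG the cluster divided into 4 higher and 5 lower in LCC, with the same counts under both other scalings. The 5 include Hoxc12 and Hoxc13, listed at 0 in LCC and at 0.0422 and 0.0159 FPKM in MG. Those MG levels are under the lowest Hox level read in LCC, so the order of these genes is not resolved. Matching shares of all names were not counted. The summed HoxC level was 7.54 FPKM for LCC, 0.449 for E-Int29-Hi and 4.89 for MG.

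HoxA members were highest in MG except for Hoxa4. Hoxa4 (ENSMUSG00000000942) stood at 1.60 FPKM for LCC, 0.218 for E-Int29-Hi and 0.384 for MG, so it was high in LCC alone, by 1.09 on the log2 scale against E-Int29-Hi and 0.91 against MG. Hoxa5 (ENSMUSG00000038253), which is needed for lung and airway development and is also expressed in mammary tissue, stood at 0.712, 0.179 and 3.08 FPKM. The highest HoxA value was thus Hoxa5 in MG, and the log2 difference of LCC from it was -1.25. Hoxa6 stood at 0.287, 0.208 and 1.39 FPKM, Hoxa7 at 0.954, 0.292 and 1.24 FPKM, and Hoxa9, of the mammary paralog group, at 0.787, 0.0903 and 1.13 FPKM. For Hoxa7 and Hoxa9 the LCC level was nearer to MG, and for Hoxa6 nearer to E-Int29-Hi.

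The remaining HoxA genes stayed under 1 FPKM in every library. Hoxa10, known for its role in the uterus, stood at 0.482 FPKM for LCC, 0.0320 for E-Int29-Hi and 0.513 for MG. Hoxa2 stood at 0.239, 0.241 and 0.577 FPKM. Hoxa3 stands on a pair of gene models: the one analysed (ENSMUSG00000079560) was at 0.546, 0.367 and 0.911 FPKM, and the other (ENSMUSG00000059723) at 0.0757 FPKM for E-Int29-Hi and 0.482 for MG, with an LCC estimate under 1e-10. Adding both models would bring Hoxa3 in MG over 1 FPKM. E-Int29-Hi stood below MG for all 11 HoxA genes, and 8 of 11 were higher in LCC than in E-Int29-Hi. No matching share of all names was counted.

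In HoxD the level rested on Hoxd8. Hoxd8 (ENSMUSG00000027102), a trunk-level gene, stood at 1.80 FPKM for LCC, 1.04 for E-Int29-Hi and 2.78 for MG. Hoxd9, of the mammary paralog group, stood at 0.212, 0.504 and 1.03 FPKM, and Hoxd4 at 0.180 FPKM in E-Int29-Hi and 1.30 in MG, with an estimate under 1e-10 in LCC. For Hoxd9, therefore, LCC was the lowest library, as it was for Hoxb4 and Hoxb9. For Hoxd4 both sorted libraries lay below MG, and their own order is not resolved, since the E-Int29-Hi level is under the lowest level read in LCC. Hoxd3 stood at 0.525, 0.136 and 0.645 FPKM and Hoxd10 at 0.250, 0.123 and 0.228 FPKM. Hoxd1 was listed at 0 in LCC and stood at 0.0226 and 0.0970 FPKM in the other libraries.

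The paralogs Hoxa9, Hoxb9, Hoxc9 and Hoxd9 divided between the sorted libraries. Hoxa9 and Hoxc9 were higher in LCC and Hoxb9 and Hoxd9 were higher in E-Int29-Hi, whereas MG held the highest level of each. Their summed level was 1.79 FPKM for LCC, 1.56 for E-Int29-Hi and 4.70 for MG. A sum over a paralog group can thus be near in LCC and E-Int29-Hi while its members differ.

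The 5′ end of the clusters, which patterns the tail, genital region and distal limb, was at or near 0. In groups 11 to 13 no value of the 9 genes exceeded 0.196 FPKM, and 1 of 9 stood above 0 in LCC (Hoxc11), 2 in E-Int29-Hi and 8 in MG. Hoxd12 was listed at 0 in all 3 libraries. Hoxb13, known from the prostate and hindgut, was listed at 0 in LCC and E-Int29-Hi and at 0.0179 FPKM in MG.

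As a readout of position, the share of the summed Hox level was taken by cluster and by paralog range. HoxB held 66.8% of the sum in E-Int29-Hi, 38.8% in MG and 28.7% in LCC, and HoxC held 3.57%, 14.4% and 33.1% in that order. HoxA held 13.7% in E-Int29-Hi, 28.5% in MG and 25.9% in LCC, and HoxD 16.0%, 18.3% and 12.3%. The HoxC share was thus highest in LCC and the HoxB share highest in E-Int29-Hi. Without the most abundant member of each library, the HoxC share in LCC was 24.2% (without Hoxc6) and the HoxB share in E-Int29-Hi 52.9% (without Hoxb3).

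By paralog range, E-Int29-Hi held the highest share in the head-end groups, and LCC and MG lay close together in the trunk groups. Groups 1 to 3, the head end, held 52.5% of the sum in E-Int29-Hi, 25.7% in LCC and 24.5% in MG. Groups 4 to 8, the neck and trunk levels, held 33.1%, 56.7% and 53.8%, and groups 9 to 13 held 14.4%, 17.7% and 21.7%. In summed level, groups 1 to 3 differed less between the libraries than the groups further along. They summed to 6.60 FPKM in E-Int29-Hi, 5.84 in LCC and 8.30 in MG, and groups 4 to 8 to 4.16, 12.9 and 18.2 FPKM. The shares depended on single genes. Without the most abundant member of each library (Hoxb3 in E-Int29-Hi and MG, Hoxc6 in LCC), groups 1 to 3 held 32.7% in E-Int29-Hi, 29.1% in LCC and 16.4% in MG, and groups 4 to 8 held 46.9%, 50.9% and 59.6%. With all members, the LCC shares of these ranges were nearer to those of MG than to those of E-Int29-Hi. The gene left out of LCC belongs to another range than the gene left out of the other libraries. The shares without these genes therefore cannot show which library LCC is nearer to.

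**Figure D3:**
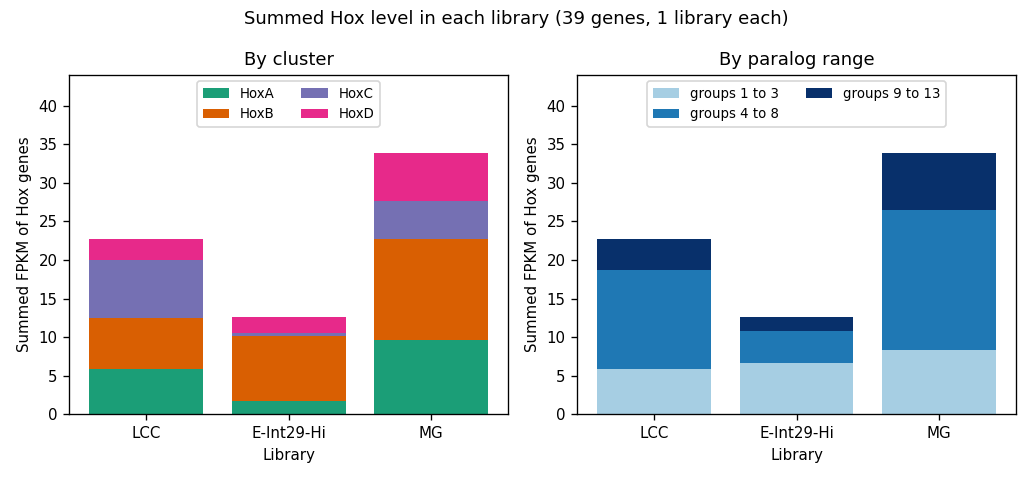
Summed FPKM of the 39 Hox genes in each library, stacked by cluster (left) and by paralog range (right). HoxC is a thin band in E-Int29-Hi (0.449 FPKM) and the largest band in LCC (7.54 FPKM), and groups 4 to 8 are the largest band in LCC and MG.

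Across the 39 genes, which are not independent replicates and share library depth, the rank order of levels was compared between libraries as a description. Spearman's rho was 0.805 between E-Int29-Hi and MG, 0.725 between LCC and MG and 0.676 between LCC and E-Int29-Hi. These values include the members listed at 0.

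LCC and E-Int29-Hi were then compared by the rule used for all genes, a difference of at least 4-fold on the log2(FPKM + 1) scale among names at 1 FPKM or more in either library. Of 39 members 7 reached that level, and 0 were 4-fold higher or lower, where 4.64% of 12147 gene names were higher and 4.35% lower. The rule needs at least 3 FPKM in the higher library, which in this pair Hoxb3 alone reached. At 2-fold, Hoxa4, Hoxc6, Hoxc8 and Hoxc10 were higher in LCC and none was lower, against 21.2% and 14.1% of all names, and the counts over all 39 members without the level filter were also 4 and 0. These 4 genes passed the filter through LCC alone, so the 4 of 7 was fixed in part by the filter. The median was 1.09 over the 7 and 0.09 over all 39, and 0.26 over all names tested. After median ratio scaling of the libraries, the median of all names moved from 0.26 to 0.01 and the split of 4-fold calls from 564 higher and 528 lower to 447 and 685. Hoxa4 then stood at 0.99, just under 2-fold, and Hoxc6, Hoxc8 and Hoxc10 at 1.59, 1.42 and 1.02. With a pseudocount of 0.1 in place of 1, the same 4 genes were at least 4-fold higher (9.29% of all names) and Hoxb3 was 2-fold lower (17.3%).

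LCC was next set against the intact gland. Of 39 members 17 reached 1 FPKM in either library, with 0 at least 4-fold higher (1.33% of 12443 names) and 0 lower (2.63%). No LCC value reached the 3 FPKM that a 4-fold call needs, so 0 higher was fixed by the rule. In MG only Hoxb3 (3.28 FPKM) and Hoxa5 (3.08 FPKM) could have been called. At 2-fold, 0 were higher and 3 lower, against 10.9% and 12.8% of all names: Hoxa5 (log2 difference -1.25), Hoxb9 (-1.10) and Hoxd4, for which no size is given because its LCC estimate is effectively 0. Each passed the filter through MG alone. By any amount, 7 of 39 members were higher in LCC (6 with equal library sums, when Hoxd10 turns), 31 were lower and 1 was listed at 0 in both. Among the lower, Hoxa11, Hoxa13, Hoxb13, Hoxc12, Hoxc13, Hoxd1, Hoxd11 and Hoxd13 were listed at 0 in LCC. Their MG levels were under the lowest Hox level read in LCC, so their order is not resolved. Shares of all names by any amount were not counted. The median over the 17 was -0.44 and over all 39 -0.13, and over all names 0.01. With a pseudocount of 0.1, Hoxa4 and Hoxc8 were at least 2-fold higher (14.2% of all names) and 7 members lower (17.9%), so that LCC stood above MG for some members and below it for others.

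E-Int29-Hi lay below MG across nearly all of the family. Of 39 members 15 reached 1 FPKM in either library, with 0 at least 4-fold higher (2.6% of 12430 names) and 0 lower (3.97%). The 3 FPKM that a 4-fold call needs was reached by Hoxb3 alone in E-Int29-Hi and by Hoxb3 and Hoxa5 alone in MG. For the other members these calls were not possible. At 2-fold, 0 were higher and 4 lower, against 8.99% and 15.5% of all names: Hoxa5 (log2 difference -1.79), Hoxc10 (-1.23), Hoxb8 (-1.15) and Hoxc6 (-1.02). These too passed the filter through MG alone. By any amount, 36 of 39 members were lower in E-Int29-Hi, 2 (Hoxb2 and Hoxb3) were higher and Hoxd12 was equal at 0, and with equal library sums 38 were lower and 0 higher. The share of all names lower by any amount was not counted, so these counts have no baseline. The median over the 15 was -0.89 and over all 39 -0.41, and over all names -0.23. Median ratio scaling moved the median of all names from -0.23 to -0.06 and the 4-fold split from 323 higher and 494 lower to 392 and 415, with Hoxc6 then at -0.98. With a pseudocount of 0.1, 7 members were at least 4-fold lower (8.76% of all names): Hoxa5, Hoxa6, Hoxa9, Hoxb8, Hoxc6, Hoxc10 and Hoxd4. The 3 comparisons share libraries and are not independent of each other.

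Markers of cell types also differed between the libraries. The 10 fibroblast markers summed to 1438 FPKM for LCC, 149 for E-Int29-Hi and 3175 for MG, each highest in MG and none at 0. Col1a1 stood at 427, 15.9 and 598 FPKM. The 10 basal markers summed to 684, 7721 and 563 FPKM, each highest in E-Int29-Hi. Between LCC and MG they divided, at a median log2 difference of -1.11. Krt14 and Krt17 were at least 2-fold higher in LCC and 6 were lower (10.9% and 12.8% of all names). The 10 luminal markers summed to 4672, 333 and 2581 FPKM and divided as well. Krt8, Krt18, Krt7 and Cldn4 were highest in LCC, whereas Elf5, Esr1, Pgr, Prlr and Expi (Wfdc18) were lowest there. Lung epithelium markers (9 genes) summed to 632 FPKM for LCC, 4.67 for E-Int29-Hi and 9.01 for MG. Scgb1a1 alone stood at 572 FPKM in LCC, and 8 of the 9 were highest there. The lung factor gene Nkx2-1 stood at 0.177 FPKM in LCC and was listed at 0 in the others. Leukocyte markers (9 genes) summed to 491, 96.2 and 89.7 FPKM, and endothelial markers (8 genes) to 126, 116 and 575 FPKM. The 6 adipocyte markers summed to 61.0, 278 and 868 FPKM, of which Fabp4 alone gave 60.4, 276 and 845. Adipoq, Plin1, Cidec and Lep stood under 1.7 FPKM in every library, with Plin1 and Lep listed at 0 in LCC. Skeletal muscle markers (4 genes) summed to 0.792, 0.623 and 9.56 FPKM, with Myh4 and Ckm listed at 0 in LCC. The part of these cell types in the Hox differences was not tested.

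Hox proteins bind DNA together with the TALE homeodomain cofactors Pbx, Meis and Pknox. Of 9 cofactor genes, 0 were 4-fold apart in any comparison. Pbx2 stood at 11.5 FPKM for LCC, 10.3 for E-Int29-Hi and 9.04 for MG, above every Hox gene in each library. Meis3 stood at 8.66, 2.43 and 6.57 FPKM, lowest in E-Int29-Hi as the HoxC genes were, whereas Pknox2 was highest there at 8.52 FPKM, with 2.14 in LCC and 1.74 in MG. Meis1 stood at 1.17, 1.94 and 3.87 FPKM. Over the 8 that reached 1 FPKM in a pair, the median log2 difference was -0.33 for LCC against E-Int29-Hi, 0.13 for LCC against MG and 0.08 for E-Int29-Hi against MG, where the medians of all names were 0.26, 0.01 and -0.23.

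Polycomb proteins hold Hox clusters silent and Trithorax proteins keep them active. Of 27 Polycomb genes, 0 were 4-fold apart between LCC and E-Int29-Hi, and Cbx8, a subunit of the repressive PRC1 complex, was lower than MG in both sorted libraries, at 0.928 FPKM for LCC, 0.472 for E-Int29-Hi and 13.1 for MG. Ezh2, the histone methyltransferase of PRC2, stood at 10.1, 16.8 and 7.29 FPKM, and Bmi1, a PRC1 subunit, at 13.7, 4.09 and 10.9 FPKM. Of 12 Trithorax genes, 0 were 4-fold apart in any comparison. The medians of the 3 comparisons, in the order used for the cofactors, were -0.23, -0.09 and -0.06 for the Polycomb list and 0.13, -0.13 and -0.21 for the Trithorax list. Mll1, a histone methyltransferase that maintains Hox expression, stood at 8.70, 21.4 and 15.6 FPKM, but the Trithorax list was not ordered alike. At 2-fold, 3 of its genes (Ash2l, Rbbp5 and Dpy30) were higher in LCC than in E-Int29-Hi and 2 (Mll1 and Ash1l) lower. Over all names the shares were 21.2% and 14.1%. The part of these genes in the Hox levels was not tested.

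Retinoic acid switches on Hox genes of the 3′ end in the embryo. Of 18 genes of its synthesis, transport, breakdown and receptors, 13 reached 1 FPKM in LCC or E-Int29-Hi. Against 4.64% and 4.35% of all names, 3 of these 13 were at least 4-fold higher in LCC than in E-Int29-Hi and 0 lower. They were Aldh1a3, a synthesis enzyme, at 83.5 against 1.17 FPKM (71.8 in MG), Crabp1, a cellular binding protein, at 29.4 against 0.0902 FPKM (3.10 in MG), and Stra6, the retinol uptake receptor, at 4.68 against 0.201 FPKM (2.12 in MG). In this pair Crabp1 and Stra6 passed the filter through LCC alone. Against MG, Crabp1 alone was 4-fold higher in LCC (1.33% of all names). In E-Int29-Hi against MG, 1 gene was 4-fold higher (2.6%) and Aldh1a3 was 4-fold lower (3.97%). The part of these genes in the Hox differences was not tested. Among the receptors, Rara stood at 22.5, 44.8 and 25.4 FPKM for LCC, E-Int29-Hi and MG. The medians over the 13 genes that reached 1 FPKM were 0.28, 0.13 and -0.52. The ParaHox, Evx and Mnx1 genes (9) stood under 1 FPKM in all libraries and were each listed at 0 in LCC.

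Other transcription factors of body position, limb and mesenchyme showed the order of the HoxC genes in several cases. Of 24 such genes with a value, 11 reached 1 FPKM in LCC or E-Int29-Hi. Of these 11, 4 were at least 4-fold higher in LCC and 1 lower, against 4.64% and 4.35% of all names. Among the 4, Prrx2, Tbx15 and Emx2 passed the filter through LCC alone. The 4 were Prrx1 (84.2 against 3.21 FPKM, 25.3 in MG) and Prrx2 (8.30 against 0.911 FPKM, 2.13 in MG), genes of limb and fibroblast mesenchyme, Tbx15 (6.44 against 0.496 FPKM, 5.63 in MG), a trunk dermis gene, and Emx2 (3.62 against 0.0315 FPKM, 1.44 in MG), a gene of forebrain and urogenital patterning. The exception was Tbx2, at 1.16 FPKM for LCC, 8.40 for E-Int29-Hi and 2.38 for MG. Tbx3, needed for mammary placode formation, stood at 13.2, 6.88 and 21.5 FPKM. Msx2 was 4-fold lower than MG in both sorted libraries, at 0.355, 0.159 and 7.79 FPKM. It was the only gene 4-fold apart between LCC and MG, while Tbx15 and Prrx1 were also 4-fold lower in E-Int29-Hi. Over all names, 2.63% were 4-fold lower than MG in LCC and 3.97% in E-Int29-Hi. The medians were 1.63 over 11 genes for LCC against E-Int29-Hi and, over 13 genes each, 0.19 for LCC against MG and -1.24 for E-Int29-Hi against MG. The lung-associated gene Tbx4 stood at 0.866 FPKM for LCC, 0.00686 for E-Int29-Hi and 0.112 for MG.

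**Figure D4:**
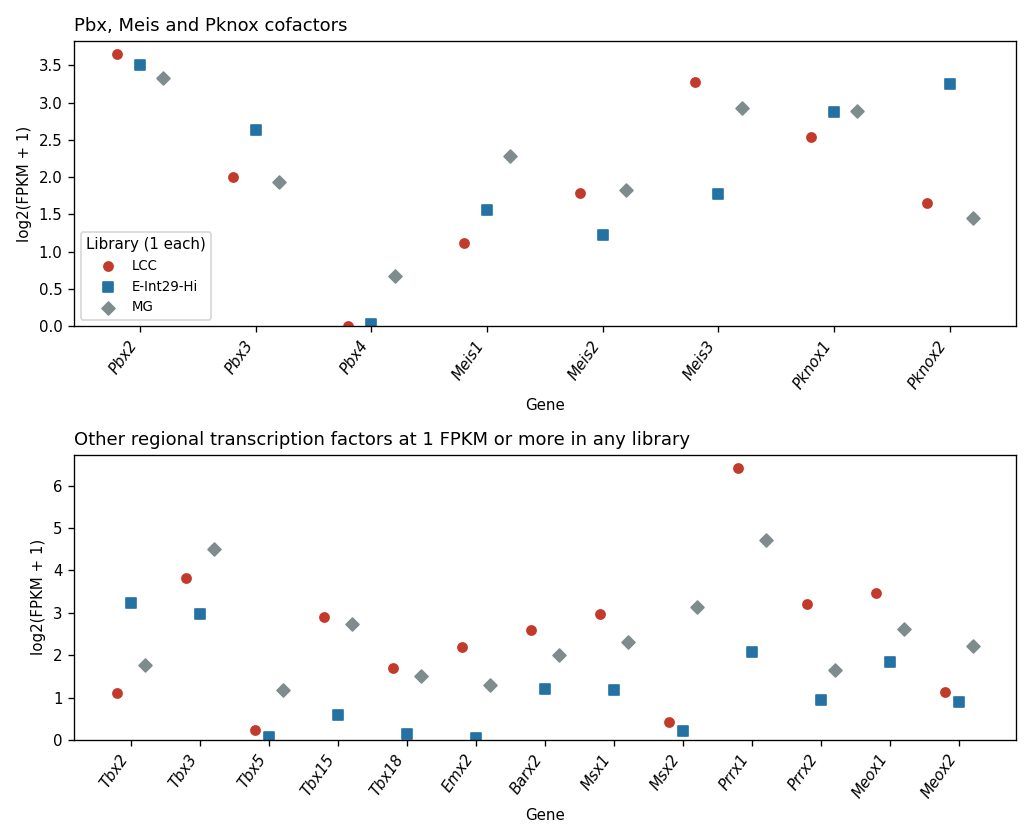
Levels as log2(FPKM + 1) of 8 TALE cofactor genes (top) and of the 13 other regional transcription factor genes that reach 1 FPKM in any library (bottom), 1 point per library. Pbx2 lies between 9.04 and 11.5 FPKM in the 3 libraries, and Prrx1, at 84.2 FPKM in LCC, is the highest of the lower panel, with E-Int29-Hi the lowest library for every gene of that panel except Tbx2.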

How the data were processed

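Poly(A) RNA of 3 pooled samples was sequenced on an Illumina HiSeq after TruSeq library preparation, per the labels. The authors deposited FPKM with a status flag for 22378 gene models per library. The submitters' processing notes name TopHat 1.4.1, Cufflinks 1.3.0 and mm9, with no step assigned to them. How strand was handled in counting is not stated, so antisense and overlapping transcripts of the dense Hox clusters cannot be told apart from the genes. The annotation at hand is of GRCm38, so no coordinates are given. The 22188 models whose status was OK in each library were kept, all 40 Hox models among them, and the model with the highest summed FPKM was kept per name.

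The difference was log2((FPKM + 1)/(FPKM + 1)) for names at 1 FPKM or more in either library, called at 4-fold and, secondly, 2-fold. With 1 library per group there is no test. The steps were tested on simulated data. Every member at 1 FPKM or more was named, and list genes that were 4-fold apart or among the most abundant. List genes were matched by name or by the current symbol of their identifier (Mll1 for Kmt2a). The members and lists were chosen with earlier results of these data known. Not analysed here were 9 noncoding RNAs of the clusters, and the values of a few genes and 1 sequence are not reported here. Alternatives were another pseudocount, filter, scaling, status rule and model choice. Homeoboxes were located in GENCODE M21 transcripts by translated sequence. Python 3.11.15, pandas 2.3.3, numpy 2.4.6 and matplotlib 3.10.9 were used.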

Additional observations from a re-analysis of the deposited data

How the results depend on the processing

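No paired analysis was possible because each group is 1 library. Keeping genes of every status and summing models of 1 name changed none of the 42 results each by more than 1.5 times (counts), 0.1 (log2 medians) or 5 percentage points (shares). Median ratio scaling kept 19 of 21. All Hox values lie under 4 FPKM, so the call depends on the pseudocount. With 0.1, 4-fold calls were 4 higher for LCC against E-Int29-Hi (9.29% of all names). For LCC against MG 1 was lower (6.55%), and for E-Int29-Hi against MG 7 were lower (8.76%). At 2-fold, in the same order, calls were 4 higher with 1 lower (27.1% and 17.3% of all names), 2 higher with 7 lower (14.2% and 17.9%), and 11 lower (22.9%). With 5, or with a filter at 5 FPKM, the 2-fold calls were 0, which levels under 4 FPKM fixed in advance. The median log2 changes for LCC against E-Int29-Hi, LCC against MG and E-Int29-Hi against MG were 2.42, -0.86 and -1.77 with a pseudocount of 0.1, 0.31, -0.19 and -0.27 with 5, and 0.091, -0.13 and -0.41 without the filter. Median ratio scaling gave 0.64 for the first and -0.78 for the last. The filter at 5 FPKM left no Hox gene for a median.

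As TPM (equal library sums), values are larger, so more members passed: 18 reached 1 for LCC, 8 for E-Int29-Hi and 27 for MG. The medians were then 0.76, -0.80 and -1.28. The 4-fold calls were 2 higher, 2 lower and 3 lower, and the 2-fold calls 7 higher with 1 lower, 1 higher with 10 lower, and 18 lower. They came from 19, 28 and 27 members that passed. Of all names tested (13812, 14421 and 14477), the 2-fold calls were 2660 higher and 2745 lower, 884 and 3912, and 1170 and 3730. The 4-fold calls over all names were 705 higher and 942 lower, 157 and 919, and 375 and 1011. The medians over all names were 0.07, -0.41 and -0.45. Among members at 1 TPM or more in any library, MG was then the highest for 23, E-Int29-Hi the lowest for 19, and LCC lay between for 14. This order was not counted over all names after rescaling.

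Without the most abundant Hox gene, shares in E-Int29-Hi were 19.4% for HoxA, 52.9% for HoxB, 22.7% for HoxD, and 32.7%, 46.9% and 20.4% for groups 1 to 3, 4 to 8 and 9 to 13. In LCC, HoxC held 24.2% and groups 4 to 8 held 50.9%. In MG, HoxB held 32.2%, groups 1 to 3 16.4% and groups 4 to 8 59.6%. Setting values under 0.2 FPKM to 0, an alternative chosen after seeing the data, gave HoxB 73.9% and groups 1 to 3 57.8% in E-Int29-Hi. The cause of these shifts beyond their construction was not tested. No called gene changed direction under any alternative; 5 uncalled differences changed sign with scaling: Hoxb2 and Hoxb6 for LCC against E-Int29-Hi, Hoxd10 for LCC against MG, and Hoxb2 and Hoxb3 for E-Int29-Hi against MG.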
